A study of Mus musculus with 18 samples.

Results

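To describe the secretory and neuronal markers by which small cell lung cancer is usually recognized, 10 genes (Chga, Chgb, Syp, Calca, Uchl1, Ncam1, Scg2, Scg3, Syt1 and Snap25) were selected by symbol out of the 25239 genes of the expression table, and all 10 were found. The 18 RNA samples came from 3 mouse cell lines of the class called Type D, 4711-1, 4711-18 and 4716-11, each grown from a lung tumor. The tumors arose in mice homozygous for Rb1 flox, Rbl2 flox and Trp53 XTR that also carried a Rosa26 FlpO-ER allele, after adenoviral Cre, driven by the CMV promoter, which is active in many cell types, had removed Rb1 and Rbl2 and inverted a gene trap that silences Trp53. Every culture, controls included, therefore lacked Rb1 and Rbl2, and every culture also carried an sgRNA: sgBgal, a control guide, or sgPpia#3.2 or sgPpia#4.1, both against the cyclophilin A gene Ppia. Each was sampled 72 h after vehicle, which leaves p53 off (Control), or after 4-hydroxytamoxifen (4-OHT), which activates FlpO and so deletes the gene trap (Restored). This gave 6 groups of 3 samples in which the cell line was the replicate, and the 6 samples of a line shared 1 origin.

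Neuroendocrine cells store peptides in dense-core granules. Granins such as chromogranin A help to form these granules and to concentrate their contents, and a SNARE machinery shared with neurons fuses them with the plasma membrane. In the lung this program belongs to rare neuroendocrine cells of the airway and to most small cell lung cancers. The transcription factors NEUROD1 and INSM1 promote it, and REST and the Notch target HES1 are known repressors of it.

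Values are TPM, the transcript share of a gene, which are scaled for gene length and can therefore be compared between genes. The deposited values of a gene were whole multiples of a smallest step, so the smallest whole numbers of reads that fit them were recovered and are given beside the TPM. The 18 samples differed 1.77-fold in depth, meaning the number of reads that 1 TPM stood for, with 40150000 to 70700000 reads recovered per sample. The 4 sgPpia samples of 4711-1 had a relative depth of 1.48 to 1.77, against 1.00 and 1.09 in the sgBgal samples of that line. As a check of the labels, Trp53 lay at 5.45 to 8.41 TPM in the 9 Control samples and at 181 to 236 TPM in the 9 Restored samples, and Cdkn1a, the p53 target that encodes p21, at 99.4 to 369 and 1565 to 3806 TPM. In Control cells Ppia ranged from 2575 to 2849 TPM under the control guide sgBgal, from 658 to 1207 TPM under sgPpia#3.2 and from 1684 to 1952 TPM under sgPpia#4.1.

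Chga, Chgb and Calca, which encode granule cargo of neuroendocrine cells, were at or near 0 in these cells. Chga, which encodes chromogranin A, was listed at 0 in 2 samples, had a median of 0.0612 TPM and reached at most 0.156 TPM, in 4711-18 with sgBgal and restored p53. No sample held more than 6 reads of it, and all 18 together held 57. Chgb, which encodes chromogranin B, had a median of 0.0966 TPM and a highest value of 0.215 TPM, with 0 to 17 reads per sample. Calca, which encodes calcitonin and CGRP, was listed at 0 in 17 of 18 samples and at 0.0181 TPM in the other, 4716-11 with sgPpia#3.2 in Control. A listed 0 still allows up to 3 reads, which for Chga corresponded to 0.0455 to 0.0807 TPM depending on the sample. Such intervals cover counting error only. With 0 to 6 reads of Chga per sample and a single sample above 0 for Calca, no order between groups was read from either gene. The reads of Chgb varied more than counting alone gives, with a coefficient of variation of 68.1% against 38.3%. In Control cells, Chgb stood at 0.110, 0.215 and 0.207 TPM in 4716-11 and at 0.0169, 0.0733 and 0.0808 TPM in 4711-18, on 8, 17 and 15 reads and on 1, 4 and 4. The 3 samples of 4716-11 lay above those of 4711-18. This difference was left out of the main tests because Chgb did not reach the level set for them. In RNA from whole cultures, fewer cells that express a gene and less RNA per cell cannot be told apart.

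Secretogranin II and III were low but detected in every sample. Scg2, the source of the peptide secretoneurin, ranged from 0.0823 to 0.975 TPM around a median of 0.216 TPM, the widest relative range of the genes detected in all samples (11.8-fold). In 4711-1 it stood at 0.197, 0.417 and 0.220 TPM in Control with sgBgal, sgPpia#3.2 and sgPpia#4.1, and at 0.653, 0.975 and 0.276 TPM in the matching Restored samples. Each Restored sample of that line was thus above its Control. In 4711-18 Scg2 was 0.160, 0.215 and 0.155 TPM in Control and 0.321, 0.164 and 0.216 TPM in Restored cells of 4711-18. In 4716-11 it was 0.131, 0.194 and 0.256 TPM in Control and 0.271, 0.0823 and 0.191 TPM in Restored cells. With sgBgal, the Restored sample was above the Control sample in all 3 lines, on 67 against 22, 34 against 21 and 41 against 21 reads, and the 3 Restored values lay above the 3 Control values. With sgPpia, it was below its Control in 3 of the 6 pairs. The difference was left out of the main tests, since Scg2 did not reach the level set for them. Scg3, which binds chromogranin A at the granule membrane, ranged from 0.170 to 0.656 TPM with a median of 0.416 TPM, on 13 to 31 reads. Because none of Chga, Chgb, Calca, Scg2 and Scg3 reached 1 TPM in any sample, none of the 5 entered the main tests below.

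The promoters of the granins were read for short sequence elements known from secretory genes. RefSeq promoters of GRCm38.p6, from 250 bases before to 50 after the annotated start, were at hand for 8 of the 10 genes and not for Ncam1 and Snap25. They were searched on both strands for the cAMP response element TGACGTCA, for its first 6 letters TGACGT, and for the left part TTCAGCACC and the right part GGACAG of RE1, the element bound by REST. The 3 promoters below, 100 bases each from position -80 to 19 relative to the start, are shown because they hold these letters close to the start, with the cAMP response element or its first 6 letters and, in Scg2, the joined RE1 parts in capitals. They lie at chr12:102554861-102554960 on the plus strand (Chga), chr2:132781562-132781661 on the plus strand (Chgb) and chr1:79440007-79440106 on the minus strand (Scg2).
Chga: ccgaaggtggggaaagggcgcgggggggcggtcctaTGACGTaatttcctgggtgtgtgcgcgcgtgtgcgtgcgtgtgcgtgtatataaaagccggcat
Chgb: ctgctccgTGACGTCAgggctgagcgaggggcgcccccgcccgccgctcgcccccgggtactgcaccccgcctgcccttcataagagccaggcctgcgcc
Scg2: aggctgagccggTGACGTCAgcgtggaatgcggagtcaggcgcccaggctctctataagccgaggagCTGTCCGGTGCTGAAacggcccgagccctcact

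The complete cAMP response element was present in Chgb and Scg2, at positions -72 and -68, and in 1.79% of all 32851 promoters of the table. Its first 6 letters were present in Chga as well, at position -44, and in 7.51% of all promoters. The capitals at the right of Scg2, CTGTCCGGTGCTGAA, are the reverse complement of TTCAGCACC joined directly to GGACAG, from position -13 to 1. That joined sequence was found in 2 promoters of the table, the left part in 0.371% and the right part in 22.2%. The parts were searched together only with no base between them, as they lie in Scg2. The count of 2 therefore does not cover RE1 with a spacer between its parts. The right part was also present in Syt1, at position -161, and none of these letters was found in Syp, Uchl1, Calca or Scg3. A match of letters is a description of the sequence and not a binding site. Rest itself was detected in all 18 samples, at 5.65 to 19.4 TPM.

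Genes of the vesicle fusion machinery and the neural adhesion molecule were detected at a low to moderate level. Snap25, a SNARE of the plasma membrane, ranged from 4.52 to 11.8 TPM with a median of 8.69 TPM, and its mean exceeded that of 65.1% of all genes in the table. Syp, the vesicle membrane protein synaptophysin, ranged from 3.03 to 7.12 TPM with a median of 4.85 TPM. Syt1, the calcium sensor synaptotagmin 1, ranged from 0.561 to 2.14 TPM with a median of 1.51 TPM. Uchl1, a neuronal deubiquitinase, ranged from 1.21 to 2.81 TPM with a median of 2.09 TPM on 42 to 80 reads. Ncam1, the adhesion molecule CD56, was the highest of the 10, at 6.90 to 29.7 TPM with a median of 13.9 TPM. In order of median the genes ran Calca, Chga, Chgb, Scg2, Scg3, Syt1, Uchl1, Syp, Snap25 and Ncam1. Neighbors in this order overlapped in range, except at the step from Uchl1 (at most 2.81 TPM) to Syp (at least 3.03 TPM).

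**Figure D1:**
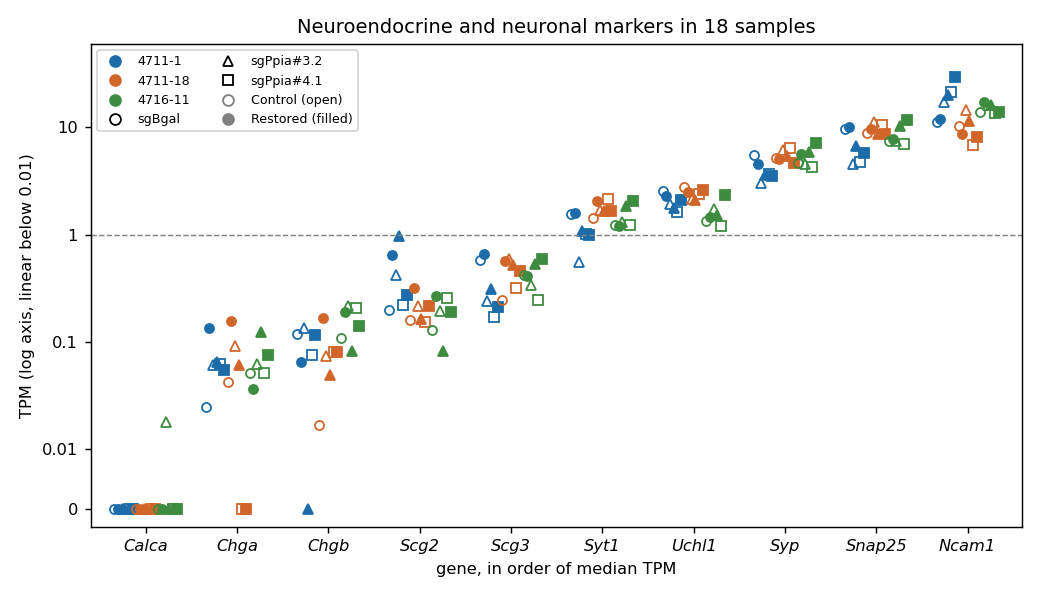
TPM of the 10 genes in each of the 18 samples (vertical axis logarithmic, linear below 0.01 TPM), with color for the cell line, shape for the sgRNA, and open and filled points for Control and Restored. Chga, Chgb, Calca, Scg2 and Scg3 stay below the dashed line at 1 TPM in all samples, and Ncam1 reaches 29.7 TPM in 4711-1 with sgPpia#4.1 and restored p53.

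The label of the cells was then compared with markers of other programs. Of 15 neuroendocrine lineage factors and repressors, 7 stayed below 1 TPM in all samples and 5 had a median of at least 10 TPM. Neurod1, which drives the program, had at most 0.156 TPM, whereas Foxa2 and Nkx2-1, factors of lung epithelium, ranged from 78.7 to 153 TPM and from 1.73 to 155 TPM. Insm1 averaged 3.06 TPM in Control and 2.13 TPM in Restored samples of 4711-1 and at most 0.054 TPM in either state of the other lines. In a list of 22 markers of non-neuroendocrine small cell lung cancer and of other cell types, 12 stayed below 1 TPM in all samples and 6 had a median of at least 10 TPM. Pou2f3, a lineage factor that marks a tuft-cell-like class of small cell lung cancer, reached at most 0.052 TPM. Several genes associated with non-neuroendocrine small cell lung cancer were higher. Hes1 ranged from 73.4 to 507 TPM and the Hippo effector Yap1 from 63.2 to 125 TPM. Cd44, a hyaluronan receptor, ranged from 48.6 to 189 TPM, the annexin gene Anxa1 from 841 to 2438 TPM and the intermediate filament gene Vim from 2436 to 6133 TPM. Chga, Calca and Neurod1, which mark neuroendocrine cells, were thus at or near 0 in cells labelled as small cell lung cancer, and of the 10 genes only Ncam1 had a median above 10 TPM. Markers of fibroblasts (Col1a1, Col1a2, Col3a1, Dcn, Lum, Pdgfra) and of endothelium (Pecam1, Cdh5, Kdr) had medians under 1 TPM.

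A few other parts of the secretory pathway were abundant. In a list of 26 genes for granule biogenesis, processing and cargo, 13 stayed below 1 TPM in all samples and 3 had a median of at least 10 TPM. These 3 were the peptide-trimming enzyme Cpe at 215 to 685 TPM, the peptide-amidating enzyme Pam at 107 to 314 TPM, and Ptprn, a receptor-like phosphatase of the granule membrane, at 43.5 to 154 TPM. The convertases Pcsk1 and Pcsk2, which cleave prohormones, had medians of 0.015 and 0.165 TPM. Cpe and Pam were thus above 100 TPM in samples in which Chga, Chgb, Scg2, Scg3, Pcsk1 and Pcsk2 were below 1 TPM. The granin-related genes Scg5 and Vgf were higher than these, with medians of 1.23 and 1.22 TPM and at most 2.13 and 2.06 TPM. In a list of 38 SNARE and synaptic vesicle genes, 10 had a median of at least 10 TPM, among them Napa (183 TPM), Snap47 (76.1 TPM) and Snap23 (35.8 TPM), which serve fusion in many cell types.

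**Figure D2:**
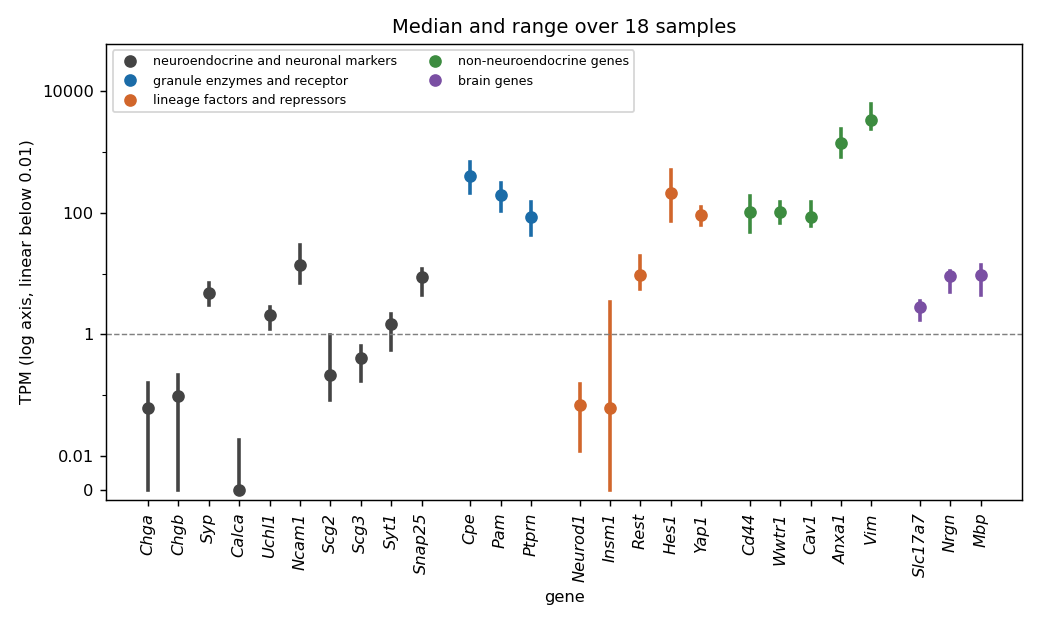
Median (point) and range (line) of TPM over the 18 samples for the 10 genes and for granule enzymes, lineage factors, non-neuroendocrine genes and brain genes (vertical axis logarithmic, linear below 0.01 TPM). Chga, Chgb and Calca lie at the bottom of the scale, whereas Cpe, Pam, Yap1, Anxa1 and Vim lie above 60 TPM in every sample.

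Snap25, Syt1 and Syp rose and fell together across the samples, and did so with genes of the brain. Over the 18 samples, which share lines, groups and depth, the Pearson correlation of log2(TPM + 1) was 0.92 between Snap25 and Syt1, 0.89 between Snap25 and Syp and 0.85 between Syt1 and Syp. Among all 12828 genes tested, those most like Snap25 were Eef1a2 (0.94), a translation factor of neurons and muscle, and the glutamate receptor gene Gria1 (0.94). Those most like Syt1 were Snap25 and the vesicular glutamate transporter gene Slc17a7 (0.91), and those most like Syp were Gria1 (0.91) and Eef1a2 (0.90). Uchl1 and Ncam1 stood apart. Uchl1 was most like Acvr2a (0.84) and Dennd5b (0.80), and Ncam1 was most like Copz2 (0.89) and Las1l (0.88), and negatively related to Snap25 (-0.63) and Syt1 (-0.69).

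For this reason 17 markers of brain cells were looked up, chosen after these values had been seen. All but Aqp4 were detected in every one of the 18 samples. Of the 17, 12 had a median below 1 TPM, among them the oligodendrocyte genes Mog, Mag and Mobp at medians of 0.224, 0.205 and 0.212 TPM. Among the highest were Mbp at 4.43 to 14.1 TPM, Nrgn at 5.01 to 11.1 TPM and Slc17a7 at 1.76 to 3.55 TPM. Summed over the 17 markers, the level was 18.5 to 40.65 TPM, or 2865 to 5506 reads per sample. Across the 18 samples the sum correlated with Syp at 0.87, with Snap25 at 0.85, with Syt1 at 0.84, with Scg3 at 0.69, with Uchl1 at 0.25 and with Ncam1 at -0.64. Whether the RNA of the brain genes, or of Snap25, Syt1 and Syp, came from the cultured cells or from another sample's RNA in the libraries was not tested, so the levels of these 3 genes are those of the libraries.

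The TPM of these genes also fell with depth. Snap25 correlated with the relative depth of the sample at -0.87, with 0.02% of the genes tested at or below that value, Syt1 at -0.85, Uchl1 at -0.71 and Syp at -0.68, against a median of -0.21 over all genes tested. Ncam1 went the other way, at 0.65. The number of Snap25 reads varied less than its TPM, with a coefficient of variation of 14.7% against 25.2%. In Control cells of 4711-1, for example, Snap25 stood at 9.73, 4.52 and 4.77 TPM under sgBgal, sgPpia#3.2 and sgPpia#4.1, on 524, 398 and 408 reads. The brain markers summed to 29.7, 18.5 and 21.2 TPM in the same 3 samples, so Snap25 and the brain markers were both lower in the deeper ones. The part of depth in these differences was examined by adding it to the fits, with the values given below.

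**Figure D3:**
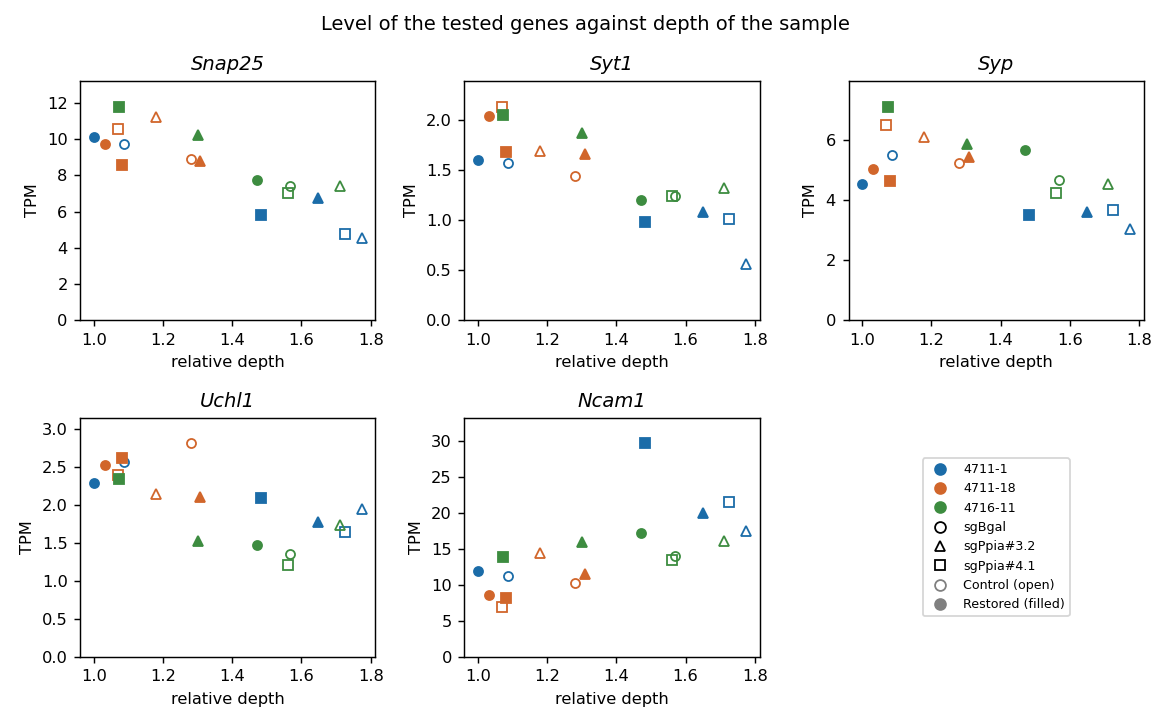
TPM of the 5 tested genes (vertical axes from 0) against the relative depth of the sample (horizontal axes), with color for the line, shape for the sgRNA, and open and filled points for Control and Restored. Snap25, Syt1, Syp and Uchl1 are lower in deeper samples, with Snap25 falling from 10.1 TPM in the shallowest to 4.52 TPM in the deepest, and Ncam1 is higher in them.

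To ask whether p53 changed these genes, Restored was compared with Control. Of the 10 genes, the 5 that reached 1 TPM in 3 or more samples were tested, in a limma fit over all 12828 such genes. A call needed an adjusted p (Benjamini-Hochberg) below 0.05 together with a change of 1 or more on the log2 scale, up or down. Of the 5, 0 were called with sgBgal, where 7.64% of all genes tested were, 0 with sgPpia#3.2 (5.75% of all genes), 0 with sgPpia#4.1 (6.09%) and 0 in the average over the sgRNAs (8.93%). None had an unadjusted p under 0.05 in these 4 comparisons either. In cells with sgBgal, Snap25 stood at 9.73, 8.88 and 7.40 TPM in Control and at 10.1, 9.74 and 7.74 TPM in Restored samples of 4711-1, 4711-18 and 4716-11. Syp stood at 5.50, 5.23 and 4.67 TPM in Control and at 4.55, 5.03 and 5.69 TPM in Restored samples. Ncam1 stood at 11.2, 10.3 and 14.0 TPM in Control and at 12.0, 8.63 and 17.3 TPM in Restored samples. In all 3 genes the Control and Restored values overlapped as groups. Within lines, Snap25 was higher in the Restored sample in 3 of 3 pairs, Syp in 1 and Ncam1 in 2, and with the line as a block none of the 3 was called.

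Averaged over the sgRNAs, the log2 fold change of Snap25 was 0.16 ± 0.18 (SE; limma adjusted p = 0.505), with a 95% interval from -0.22 to 0.54. That of Syt1 was 0.14 ± 0.14 (adjusted p = 0.470), with an interval from -0.16 to 0.43. Syp had 0.05 ± 0.15, Uchl1 0.06 ± 0.12 and Ncam1 0.08 ± 0.24, with intervals from -0.26 to 0.37, -0.20 to 0.32 and -0.43 to 0.59. All 5 intervals thus leave out a change of 1 on the log2 scale in either direction, on the scale of log2(TPM + 1), which understates the change of low genes such as Syt1 and Uchl1. The median change of the 5 was 0.08, against 0.17 over all genes tested. Rescaling by the median of ratios moved the median of all genes from 0.17 to -0.01, and on that scale Snap25, Syp, Uchl1 and Ncam1 fell below 0 without passing the test.

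**Figure D4:**
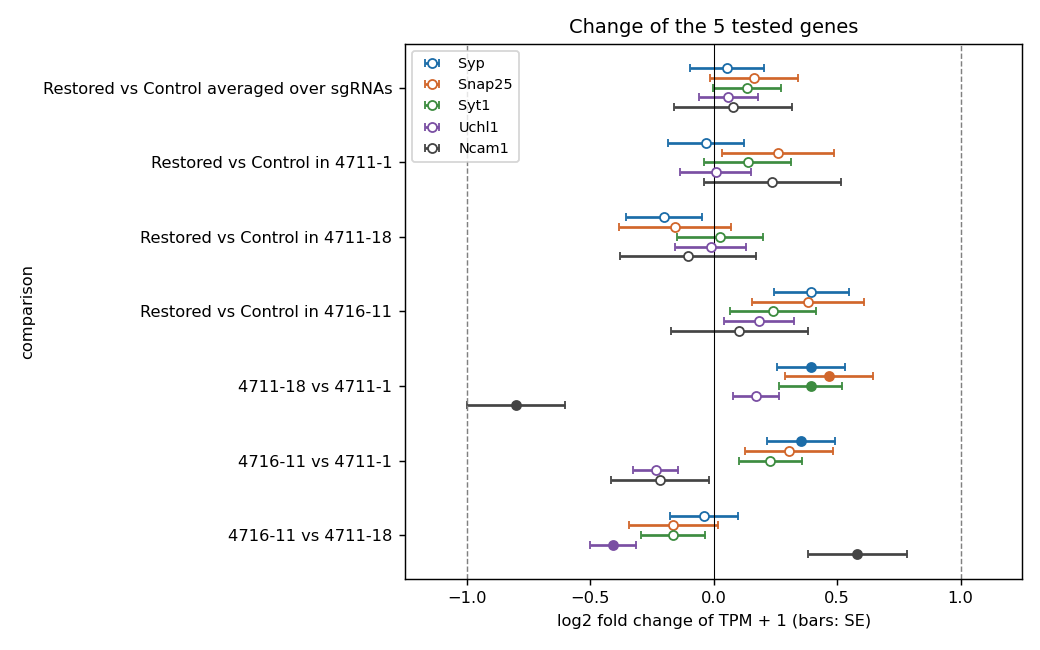
Log2 fold change of TPM + 1 (horizontal axis, bars are SE) of the 5 tested genes for restored p53 on average and in each line, and for each pair of lines (filled points have a limma adjusted p under 0.05). All points lie between the dashed lines at -1 and 1, and Ncam1 in 4711-18 against 4711-1 is the farthest from 0, at -0.80.

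Restoration within single lines was read as an addition to the test of the difference between lines, and there Syp came closest to the threshold. In 4716-11 the log2 fold change of Syp was 0.40 ± 0.15 (limma adjusted p = 0.0501), from 4.67, 4.53 and 4.24 TPM in Control to 5.69, 5.89 and 7.12 TPM in Restored samples. All 3 Restored samples of that line lay above its 3 Control samples. In 4711-18 the change was -0.20 ± 0.15 and in 4711-1 it was -0.03 ± 0.15, and in both lines the states overlapped. None of the 5 genes was called in 4711-1 (8.48% of all genes), 4711-18 (13.6%) or 4716-11 (10.7%). Where the difference between lines in the change itself was tested, 0 of the 5 genes passed against 4.92% of all genes, and Syp had an adjusted p of 0.222. In 4716-11 the summed brain markers were 29.85 to 30.1 TPM in Control and 37.05 to 40.65 TPM in Restored samples, and the relative depth was 1.56 to 1.71 in Control and 1.07 to 1.47 in Restored samples. Neither overlapped between the states. With relative depth in the fit, a setting chosen after these values had been seen, the change of Syp in 4716-11 was 0.18 ± 0.13 (adjusted p = 0.284), and over the other settings the adjusted p ran from 0.0471 to 0.257. The part of the brain markers in it was not tested.

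The next comparisons asked whether the Ppia guides changed these genes. Against sgBgal, 0 of the 5 genes were called for sgPpia#3.2 or sgPpia#4.1 in Control or in Restored cells, and 0 in the difference between guides in the response to p53. In each of these 6 comparisons 0% of the 12828 genes passed the limma test, and none of the 5 had an unadjusted p under 0.05, whereas 18 to 311 of all genes did. Ppia itself, the target, was not called either, at -1.51 ± 0.26 with sgPpia#3.2 in Control (limma adjusted p = 0.472), so these zeros do not show that the guides left the 5 genes unaltered. When the replicate block for the line was added, 2 genes passed for sgPpia#3.2 in Control cells and 1 in Restored cells, Ppia among them in both (adjusted p of 0.00153 and 0.0431), and still 0 of the 5. The largest difference among the 5 was that of Ncam1 with sgPpia#3.2 in Control, with a log2 fold change of 0.42 ± 0.41 and a 95% interval from -0.47 to 1.30. Within 4711-1 alone, Ncam1 stood at 11.2 and 12.0 TPM with sgBgal and at 17.5 to 29.7 TPM in the 4 samples with sgPpia, which are also the deeper samples of that line. With sgPpia#3.2 in Control, Ncam1 was above sgBgal in 3 of 3 lines, at 17.5 against 11.2, 14.5 against 10.3 and 16.1 against 14.0 TPM, and with the block for the line the change had an SE of 0.28 and an adjusted p of 0.565. With sgPpia#4.1 in Control it was above sgBgal in 4711-1, at 21.6 TPM, and below it in 4711-18 and 4716-11, at 6.90 and 13.5 TPM.

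The lines were compared next, since each is a separate tumor. At the thresholds used above, 0 of the 5 genes differed between 4711-18 and 4711-1 (8.93% of all genes), between 4716-11 and 4711-1 (6.82%) or between 4716-11 and 4711-18 (8.96%). At the adjusted p alone 4, 1 and 2 of the 5 passed, where 49.1%, 46.6% and 55.2% of all genes did, with 6 samples per line. The median change of all genes was 0.09, -0.08 and -0.15 in the same order. In 4711-18 against 4711-1 these passes depended on the setting. In Control samples alone Ncam1, Syp and Syt1 had limma adjusted p of 0.117, 0.0898 and 0.117, and in Restored samples alone 0.0278, 0.0957 and 0.146. Rescaling by the median of ratios gave Syp 0.0853 and Snap25 0.103, with Syt1 (0.0457) and Ncam1 (0.0023) still under 0.05. Ncam1 averaged 18.7 ± 6.84 TPM (SD, n = 6) in 4711-1, 10.01 ± 2.73 TPM in 4711-18 and 15.1 ± 1.54 TPM in 4716-11. Its log2 fold change in 4711-18 against 4711-1 was -0.80 ± 0.20 (limma adjusted p = 0.00466), and in 4716-11 against 4711-18 it was 0.58 ± 0.20 (adjusted p = 0.0238). Uchl1 averaged 2.43 ± 0.278 TPM in 4711-18 and 1.60 ± 0.403 TPM in 4716-11, a log2 fold change of -0.41 ± 0.09 (adjusted p = 0.00222). One sample of 4716-11, with sgPpia#4.1 and restored p53, reached 2.34 TPM and so lay inside the range of 4711-18, 2.10 to 2.81 TPM.

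Snap25, Syt1 and Syp were lower in 4711-1 than in 4711-18, and in the sgBgal samples alone these differences lay near 0. Snap25 averaged 6.95 ± 2.43 TPM (SD, n = 6) in 4711-1 and 9.63 ± 1.07 TPM in 4711-18, a log2 fold change of 0.47 ± 0.18 (limma adjusted p = 0.0445). Syt1 had 0.39 ± 0.13 (adjusted p = 0.0206) and Syp 0.39 ± 0.14 (adjusted p = 0.0299). In the sgBgal samples alone, a setting chosen after these values had been seen, the same 3 changes were -0.08, 0.07 and 0.03 and that of Ncam1 was -0.27, with adjusted p of 0.714, 0.780, 0.921 and 0.339. With relative depth in the fit, also chosen afterwards, Snap25 had 0.09, Syt1 0.15, Syp 0.16 and Ncam1 -0.50, with adjusted p of 0.485, 0.208, 0.305 and 0.0503. In 4716-11 against 4711-1, Syp had 0.35 ± 0.14 (limma adjusted p = 0.0498), against 0.04 (0.905) in the sgBgal samples and 0.37 (0.00914) with depth. Uchl1 in that comparison had -0.23 ± 0.09 (0.0503), against -0.51 (0.0987) and -0.23 (0.0344). Uchl1 in 4716-11 against 4711-18 kept an adjusted p under 0.05 in both settings, at -0.61 (0.0408) and -0.29 (0.0291). Ncam1 in that comparison had 0.67 (0.0506) in the sgBgal samples and 0.27 (0.256) with depth.

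The wider program was read from gene lists in the same way. None of the 12 tested genes for granule biogenesis, processing and cargo, of the 25 tested SNARE and synaptic vesicle genes or of the 14 tested genes of the neuronal cytoskeleton and adhesion was called in the average over the sgRNAs (8.93% of all genes) or with sgBgal (7.64%). Within single lines, Ddc fell in 4711-18 by 1.40 ± 0.19 on the log2 scale (limma adjusted p = 4.99e-05) and Resp18 rose in 4716-11 by 2.08 ± 0.18 (adjusted p = 1.2e-06). Each was 1 of the 12 granule genes, where 13.6% and 10.7% of all genes were called. The fall of Ddc was not particular to 4711-18. Its mean went from 0.761 to 0.164 TPM in 4711-1 and from 1.35 to 0.205 TPM in 4716-11. At such levels log2(TPM + 1) understates the change. The change differed between lines for Resp18 (adjusted p = 0.00143) and for Rims2 (0.0241), a vesicle docking gene, so 1 of 12 granule and 1 of 25 SNARE and vesicle genes passed against 4.92% of all genes. Their median log2 fold changes in the average were 0.20, 0.33 and 0.20, against 0.17 over all genes. Among 8 tested neuroendocrine lineage factors and repressors 1 rose in the average, Hes1, with a log2 fold change of 1.27 ± 0.24 (limma adjusted p = 0.000737). Its mean went from 188 to 289 TPM in 4711-1, from 155 to 372 TPM in 4711-18 and from 118 to 423 TPM in 4716-11. Without 4716-11 its change was 0.97, under the threshold on size. With sgBgal alone it was 0.89 ± 0.41 (adjusted p = 0.165), and Rest, at 0.67 ± 0.18 in the average (adjusted p = 0.00872), did not reach the threshold on size. Among 7 tested non-neuroendocrine and other cell type markers 1 rose, Cd68, a lysosomal protein of macrophages and other cells, by 2.88 ± 0.18 (adjusted p = 2.45e-08). In lists of 7 and 8 genes a count of 1 is not set apart from the 8.93% of all genes called. Of other leukocyte markers, Ptprc, Adgre1 and Csf1r stayed below 1 TPM, with Csf1r at means of 0.057 and 0.403 TPM in Control and Restored samples of 4711-18. Lyz2, a lysozyme of myeloid cells and lung epithelium, ranged from 0.247 to 2.84 TPM, with 0.12 in the average (adjusted p = 0.659). The part of such cells in the change of Cd68 was not tested.

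Between lines, several genes of these lists passed the threshold on size. None of the 5 tested genes did, but among 5 genes a count of 0 is not set apart from the 6.82% to 8.96% of all genes called. In the granule list 2 of the 12 tested genes were higher and 1 was lower in 4711-18 than in 4711-1, where 8.93% of all genes were called. In 4716-11, 0 differed from 4711-1 (6.82% of all genes), and 1 was higher and 2 were lower than in 4711-18 (8.96%). In 4711-18 against 4711-1, Vip, a neuropeptide gene, was 3.81 ± 0.22 higher on the log2 scale. Ddc, the decarboxylase that makes dopamine and serotonin, was 3.62 ± 0.18 higher in the same comparison. Vip averaged 14.2 TPM in Control and 25.6 TPM in Restored samples of 4711-18 and under 1 TPM in both other lines, so it was tested only through that line. Ddc averaged 28.6 and 10.4 TPM there. Resp18, a granule protein, was 1.81 ± 0.31 higher in 4716-11 than in 4711-18, with a mean of 9.01 TPM in Restored against 1.36 TPM in Control samples of 4716-11. In Control samples alone the difference was 0.82, under the threshold on size, and in Restored samples alone it was 2.81.

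Among the 25 tested SNARE and synaptic vesicle genes 2 were higher and 3 lower in 4711-18 than in 4711-1, against the same 8.93% of all genes. Unc13b, which primes vesicles, was lower by 2.22 ± 0.10 in 4711-18 against 4711-1 on the log2 scale (change of -2.22). The synapsin gene Syn1 had -1.99 ± 0.15 in 4716-11 against 4711-1, and the vesicle protein gene Syngr3 -1.73 ± 0.14 in 4716-11 against 4711-18. Against 4711-1, 1 gene of this list was higher and 3 were lower in 4716-11, where 6.82% of all genes were called, and against 4711-18 1 was higher and 2 were lower (8.96%). In the cytoskeleton list 2 of 14 tested genes were lower in 4711-18 than in 4711-1, the neuronal tubulin gene Tubb3 at -2.14 ± 0.18 and the axon growth gene Dpysl3 at -2.12 ± 0.20. In 4716-11, 1 was lower than in 4711-1, and 2 were higher and 1 was lower than in 4711-18. Map2, of neuronal microtubules, had -1.20 ± 0.09 in 4716-11 against 4711-1. Among the 8 tested lineage factors and repressors 1 was higher and 2 were lower in 4711-18 than in 4711-1, and the same counts held for 4716-11 against 4711-1, whereas 1 was lower in 4716-11 than in 4711-18. Nkx2-1, a factor of lung epithelium, was 4.39 ± 0.26 higher in 4711-18 than in 4711-1. Sox2 had -3.27 ± 0.17 and Insm1 -1.77 ± 0.10 in 4716-11 against 4711-1, both with their highest levels in 4711-1. Of the 7 tested non-neuroendocrine and other markers 1 differed between lines, Anxa1, with -1.15 ± 0.08 in 4711-18 against 4711-1. Of 5 epithelial genes added after these values had been seen, Epcam had -1.54 ± 0.29 in 4716-11 against 4711-18. Cdh1, which encodes E-cadherin, had -1.01 ± 0.10 in 4711-18 against 4711-1. Each was the only 1 of the 5 called in its comparison, where 8.96% and 8.93% of all genes were. Epcam averaged 4.6 TPM in Control and 0.95 TPM in Restored samples of 4711-18 and under 1 TPM in both other lines. The Control samples of 4711-18 were thus enough to bring Epcam into the tests. Krt8, Krt18 and Krt19 were not called in any line comparison. Insm1, which was tested only through 4711-1, Sox2, Tubb3 and Unc13b were highest in that line. Chga averaged 0.067 ± 0.036 TPM (SD, n = 6) in 4711-1, 0.059 ± 0.06 TPM in 4711-18 and 0.067 ± 0.031 TPM in 4716-11, and the ranges of the 3 lines overlapped. Chgb averaged 0.158 ± 0.055 TPM in 4716-11, 0.085 ± 0.05 TPM in 4711-1 and 0.078 ± 0.05 TPM in 4711-18, with overlapping ranges. Scg2 averaged 0.457 ± 0.305 TPM in 4711-1, 0.205 ± 0.063 TPM in 4711-18 and 0.187 ± 0.072 TPM in 4716-11, also with overlapping ranges.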

How the data were processed

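RNA-sequencing libraries of 18 samples of 3 Type D cell lines were analyzed. The authors deposited TPM for 25239 genes, with 1 column per sample. Per the labels, bcl2fastq 2.17 and HISAT2 were used, and both mm10 and GRCm39 are named as builds. The counter and the gene lengths are not given in the sources used here. The values of each sample sum to the same total. Read numbers were recovered from the steps between a gene's values (tolerance 0.01 reads), for 93.1% of the genes above 0, and the genes left out held 5.66 to 8.58% of the TPM per sample. They are the smallest that fit and served for description only.

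log2(TPM + 1) was fitted with limma 3.58.1 (R 4.3.3) for the 12828 genes that reached 1 TPM in 3 or more samples. State and sgRNA comparisons used 1 mean for each of the 6 groups, line comparisons added the line, and the line difference in restoration used line-by-state means with sgRNA as a covariate. p-values were Benjamini-Hochberg adjusted over all genes tested. Differences between lines in restoration and interactions were called at an adjusted p under 0.05 alone, other comparisons with a log2 change of 1 or more, up or down, as well. Nothing states that cultures of a line were handled in separate experiments, so p-values measure the spread between these samples, which may be technical. Restoration within single lines was added later. On data simulated for restoration with sgBgal over the 12828 genes, 28.5% of 200 genes changed by 1 and 83.5% of 200 changed by 2 on the log2 scale were recovered, with 1 and 7 false calls.

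The same line pairs the samples: deviations from the group means correlated at 0.73 on average over 45 pairs, at least 0.58. The 10 genes and the gene lists were chosen with earlier results of these data known. Some genes of the lists are not reported here. From each list except the brain markers, up to 3 genes with the largest called change in the averaged restoration, with the same sign in the 3 lines, and up to 3 in any line comparison were named, together with the 2 genes most correlated with each tested gene. Genes named only for their level were chosen after their values were seen. Figures used Python 3.11.15 and matplotlib 3.10.9.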

Additional observations from a re-analysis of the deposited data

How the results depend on the processing

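The number of the 10 genes called was 0 under each alternative run for a comparison, except between lines without a minimum fold change. For Chga, Chgb, Calca, Scg2 and Scg3 this was largely fixed in advance. They failed the filters on level. Without a filter, a gene below 1 TPM cannot change by 1 on the scale of log2(TPM + 1). Only differences called at the adjusted p alone could have counted them there, so the zeros describe the 5 tested genes. A pseudocount of 0.1, median-of-ratios rescaling, no filter on low values, a mean of at least 1 TPM and trend and robust estimation were run for all comparisons. Leaving out each cell line (0 to 0), the block and the fit on the compared groups were run for the state and sgRNA comparisons (the last not for the average over the sgRNAs), 1 state alone and the sgBgal samples alone for those between lines, no sgRNA term for restoration within lines and its difference between lines, and relative depth for the averaged restoration, restoration within lines and the lines. Restoration within lines and its alternatives were chosen after seeing the data. When the cell line entered as a replicate block no call of the 10 genes changed, and Ppia with sgPpia#3.2 became called (-1.51 and -1.13). Without a minimum fold change it became 4 for 4711-18 against 4711-1, 1 for 4716-11 against 4711-1 and 2 for 4716-11 against 4711-18, by construction.

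Directions were not stable for small changes. In restoration averaged over the sgRNAs, rescaling turned Syp to -0.11, Uchl1 to -0.073, Ncam1 to -0.105 and Snap25 to -0.016, and depth as a covariate turned Syp to -0.081, Uchl1 to -0.048, Syt1 to -0.018 and Snap25 to -0.048. Depth as a covariate moved Ncam1 from 0.079 to 0.338. Leaving out 1 line gave Snap25 0.052 (without 4716-11) to 0.321 (without 4711-18), Syt1 0.082 (without 4716-11) to 0.189, Syp -0.117 (without 4716-11) to 0.182, Uchl1 -0.002 (without 4716-11) to 0.095 and Ncam1 0 (without 4711-1) to 0.171. In the sgBgal samples alone, Snap25 in 4711-18 against 4711-1 turned to -0.083 and Ncam1 in 4716-11 against 4711-1 to 0.393. The cause was not tested. Resp18 in 4716-11 against 4711-18 was 0.816 in Control samples alone and Hes1 in the averaged restoration 0.969 without 4716-11, both under the threshold on size.

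The number of all genes called moved more. With the block it went from 781 to 1177 in restoration with sgPpia#4.1 and from 0 to 2 and 1 with sgPpia#3.2 in Control and Restored cells. On the compared groups it went from 738 to 401 and from 781 to 474 in restoration with sgPpia#3.2 and sgPpia#4.1. A pseudocount of 0.1 moved it from 875 to 1387 in 4716-11 against 4711-1, from 1149 to 1776 in 4716-11 against 4711-18 and from 631 to 358 in the line difference in restoration, and the sgBgal samples alone moved the first of these to 555. Without 4711-1 it went from 980 to 604 with sgBgal and from 738 to 439 with sgPpia#3.2, without 4711-18 from 781 to 477 with sgPpia#4.1, and without 4716-11 to 471, 229 and 278 with sgBgal, sgPpia#3.2 and sgPpia#4.1.

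Depth limits Chga, Chgb and Calca most, with 0 to 17 reads of Chga and Chgb per sample. The 4 sgPpia samples of 4711-1 were the deeper ones of their line, so sgRNA and depth cannot be told apart there.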
